A study of Cervus nippon with 40 samples.

Results

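The liver libraries of Sika Deer (Cervus nippon) were set against the libraries of 9 other organs, over the known miRNAs, that is, those listed under a cattle name with the prefix bta-. The members were the libraries whose tissue label was liver, 4 of the 40 libraries. Small RNA sequencing reads the short RNAs of a tissue, and the reads matching a miRNA were measured. The organs were adrenal, antler, brain, heart, kidney, liver, lung, skeletal muscle, spleen and testes, each with 1 library at 4 stages, which the study calls juvenile (age 1 year), adolescence (age 3), adult (age 5) and aged (age 10). The deer were males of the Shuangyang breed with no treatment named in the labels. Each library pooled RNA of 3 deer of 1 stage, out of 12 deer in all, so the organ libraries of a stage share their deer and the 4 liver libraries hold 4 different sets of deer. The spread between liver libraries therefore contains both stage and deer, and neither repeat libraries nor single animals were measured.

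A miRNA is a short RNA that pairs through a few bases at its 5′ end with messenger RNAs and lowers their stability or translation. In mammals the liver is known for miR-122, the main miRNA of hepatocytes, and for miR-192, which is also abundant in kidney and gut and whose close relative miR-215 has the same pairing bases. miR-192 and miR-194 are made from a shared precursor transcript. The miR-2284 and miR-2285 names belong to a large group of related miRNAs described in cattle and other ruminants. The liver is a mixture of hepatocytes, vessels, stellate cells, bile ducts and blood, and in such bulk samples more cells of a type and more of a miRNA per cell cannot be told apart.

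The liver libraries held 438096 (juvenile), 329913 (adolescence), 390228 (adult) and 698874 (aged) miRNA reads, against 41866 to 7759033 over all 40 libraries. Levels are in RPM, reads per 1000000 miRNA reads of the library, and 1 read in liver was worth 1.43 to 3.03 RPM. Of 305 known names compared, 186 were read in liver, 113 of them at all 4 stages. Of the textbook hepatocyte miRNAs, miR-192 was very high, miR-194 had 0 liver reads (3 reads, the limit a count of 0 allows, would be 4.29 to 9.09 RPM) and miR-885 had 1 read. miR-122 was not analysed here. The tissue was thus taken from the label. Of the hepatocyte miRNAs read here miR-192 alone was high, and it was also very high in kidney. miR-2285j and miR-2285l were known from earlier results of these libraries, so they give the label no separate support.

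The liver profile was led by let-7b and miR-192. let-7b, of the let-7 family that rises as tissues mature, stood at 168162, 185325, 156632 and 180007 RPM from the juvenile to the aged library. The name miR-3596 carried the same reads in all 4 liver libraries, so it is not counted apart. miR-192 stood at 187160, 147600, 164140 and 151788 RPM. Each took about as large a part of the reads as the other, 17.3% for let-7b and 16.3% for miR-192 on average, and the order of the pair changed between stages.

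Below them the levels dropped. miR-30c, of a family known in epithelial tissues, averaged 61676 ± 9393 RPM (SD, n = 4). miR-199a-3p, a miRNA of mesenchymal and stellate cells whose second name miR-3604 had nearly the same reads, averaged 55685 ± 7437 RPM. miR-145, known from smooth muscle, stood at 41062, 39859, 86257 and 38453 RPM, with the adult library at more than 2 times each of the others.

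The names from the sixth to the twentieth place ran from miR-30f, at 26085 RPM, through miR-339a, miR-199a-5p, miR-22-3p, let-7c, miR-26a, miR-186, miR-378, miR-2284x, let-7a-5p, miR-486, miR-339b, miR-1 and miR-214 to miR-574, at 4944 RPM. When second names were left out, the 10 highest miRNAs held 81.8% of liver reads and the 20 highest 94.8%. Liver spread its reads widely. Its 10 highest names held the smallest share among the 10 organs, 82.4% from the highest names of each library on average, while the largest such share was 99.5%. For the 2 highest names liver was in place 8 from the largest share, and for the 5, 20 and 50 highest in place 9. Of the 20 highest names, 18 were among the 20 highest at every liver stage. The same 20 shared 18 names with lung, 17 with spleen, 17 with testes and 12 with brain.

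Several of these places were unlike those in other organs. With second names counted, miR-192 was in place 3 in liver, in place 1 in kidney and between place 19 and 27 in the other 8 organs. miR-339b, which is not among the miRNAs with a settled role in liver, was in place 21 in liver and between 26 and 45 elsewhere. Going the other way, miR-26a was in place 14 in liver and had a median place of 8 in the other organs, and liver was ninth of the 10 organs in its level.

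**Figure D1:**
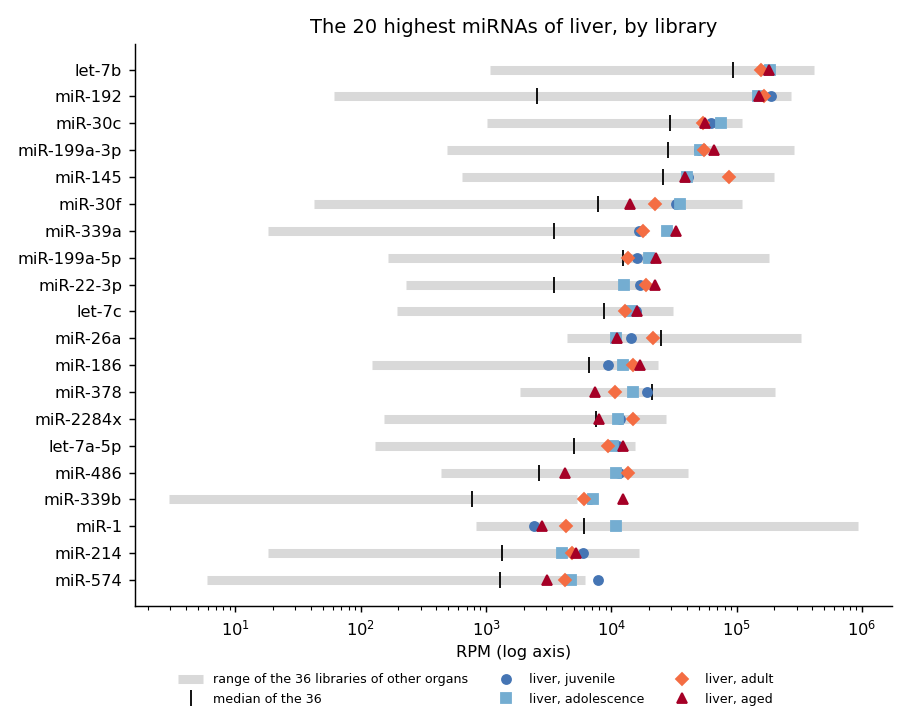
RPM on a log axis of the 20 highest liver miRNAs (second names left out), with 1 point for each liver library, a grey bar for the range of the 36 libraries of other organs and a tick for their median. miR-339b lies above the grey bar in all 4 liver libraries, while miR-192 lies inside it because of kidney.

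The first comparison asked which miRNAs were higher or lower in liver than in the mean of the other 9 organs. miR-2285j, miR-2285l, miR-216b and miR-192 were higher by 5 log2 units or more. miR-339b and miR-339a were higher by 2.72 and 2.07. The muscle miRNA miR-1, the neural and endocrine miRNA miR-7, miR-135a, miR-95 and miR-196a were lower by 2.67 or more. The test was limma on log2(RPM + 1) after TMM scaling, which sets libraries to each other on their middle genes, with organ and stage as terms and all 40 libraries. A miRNA was called at an adjusted p (Benjamini-Hochberg) below 0.01 and a difference above 1 on the log2 scale, which understates the difference of rare miRNAs. A miRNA was tested when 4 libraries or more held at least 10 reads of it. Names that met this minimum without liver were thus favoured for a lower call, and names that met it through liver alone for a higher one. Of the 124 tested, 26 were called (21.0%), 12 of them higher (9.68%) and 14 lower (11.3%), and the median difference over all 124 was -0.11.

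The count depended on single libraries. It was 14 without the juvenile liver library, 15 without the aged liver library and 16 without the skeletal muscle libraries, and called higher without the adolescence liver library were 6. The fits without a liver library also lost miR-2285j, which no longer met the minimum. With the 124 names kept, 16 were called without the juvenile and 16 without the aged liver library, and 8 were called higher without the adolescence one. With scaling to total miRNA reads the split turned to 44 higher and 5 lower and the median difference to 1.07, so each direction below is relative to the middle of the miRNAs. miR-2285l, miR-216b, miR-192, miR-339a, miR-339b, miR-135a, miR-196a and miR-95 were called with the same direction in all 25 alternatives. The call was lost most often for miR-452 (16 of the 25, among them edgeR and DESeq2), miR-196b (14), miR-423-3p, miR-133c and miR-1468 (13 each). It was lost in 10 for miR-215 and miR-490, in 8 for miR-677 and miR-7859, in 6 for miR-424-5p, in 5 for miR-193b and miR-378d, in 3 for miR-378 and miR-378c, in 2 for miR-1 and in 1 for miR-7 and miR-409a.

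**Figure D2:**
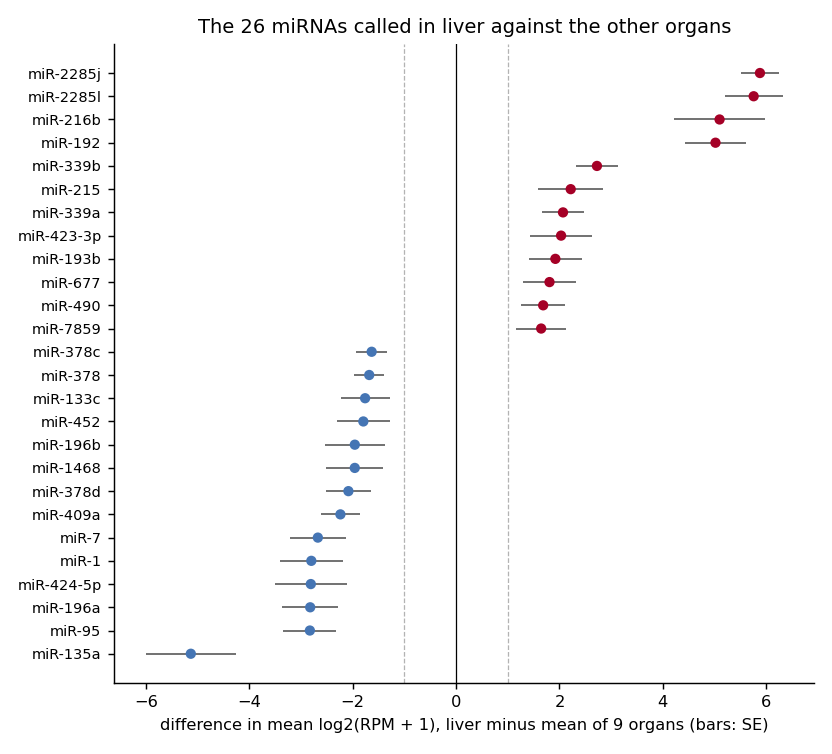
Difference in mean log2(RPM + 1) after TMM scaling, liver minus the mean of 9 organs, for the 26 called miRNAs, with the standard error as a bar and the limits of 1 and -1 dashed. From miR-2285j at 5.88 to miR-7859 at 1.65 the points lie right of 0, and from miR-378c at -1.63 to miR-135a at -5.13 left of it.

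miR-2285j was nearly particular to liver in its reads. It stood at 105 (46 reads), 336 (111 reads), 94.8 (37 reads) and 199 RPM (139 reads) from juvenile to aged. The 95% exact Poisson interval, which covers counting error only, was 66.8 to 131 RPM in the adult library and 277 to 405 RPM in the adolescence library. The adolescence library was thus above the adult library by more than counting error. It had a read in 10 of the 36 other libraries, with the highest value of 14.9 RPM in the adolescence testes. All 4 liver libraries lay above the other 36.

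The fitted difference was 5.88 ± 0.37 (SE, adjusted p = 1.68e-15, limma). miR-2285j passed the minimum of reads through the liver libraries alone, since no other library had 10 reads of it, so its call was bound to be in this direction. It was the single miRNA of the 124 (0.806%) whose liver libraries were all above the rest on the TMM scale, and the single one (0.806%) called higher in liver than in each of the 9 organs. When 1 stage was left out it no longer met the minimum, and that last count was 0. With the 124 names kept, its difference without each liver library in turn ran from 5.57 to 6.22.

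miR-2285l was more abundant than miR-2285j. Its liver libraries held 2253, 2495, 3055 and 1485 RPM, and the median of the 36 others was 21.8 RPM. The next organ was antler, at 908, 798, 265 and 150 RPM, so all 4 liver libraries were above all others in RPM and the mean was 4.38 times that of antler. After TMM scaling 3 of the 4 remained above all others. The difference from the mean of the 9 organs was 5.76 ± 0.56 (SE, adjusted p = 2.35e-10, limma), and against antler alone it was 1.43 ± 0.75 and was not called (adjusted p = 0.153, limma), while the other 8 organs were called.

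Most other names of this ruminant group were too rare to test. Of 41 names with a value, 26 were read in liver, beside 186 of all 305 known names, 15 had 0 liver reads and 7 were tested. Of the 7, miR-2285j, which met the minimum through liver alone, and miR-2285l were called higher, beside 9.68% of all 124, and the other 5 were not called by limma, edgeR or DESeq2, with a median difference of 0.04 over the 7, beside -0.11 over all miRNAs tested. miR-2284x, the most abundant at 11426 RPM in liver, differed by 0.04 ± 0.32. miR-2284y and miR-2285u had the same liver reads (433 each).

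miR-216b, from a group known in pancreas, was high in liver with a wide spread. Its liver libraries held 91.3, 512, 1709 and 831 RPM. The highest other library was the juvenile brain at 137 RPM, so the juvenile liver lay within the range of the others and the later 3 stages above it. After TMM scaling 2 of the 4 liver libraries were above all others. The difference was 5.10 ± 0.88 (SE, adjusted p = 2.5e-05, limma), and it was called against 7 organs and not against brain and heart. miR-216a, of the same group, had 1 read in liver and none in the other organs.

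miR-192 separated liver and kidney from the rest. Outside kidney the highest value was 12420 RPM in the adolescence testes, below the lowest liver library at 147600 RPM. The difference from the mean of the 9 organs was 5.02 ± 0.59 (SE, adjusted p = 1.76e-08, limma), and 8 organs were called, all but kidney. Its relative miR-215 was rare, at 82.2, 6.06, 35.9 and 40.1 RPM in liver, with 2 reads in the adolescence library. miR-215 was higher by 2.22 ± 0.63 (adjusted p = 0.00629, limma), and its highest value was 225 RPM in the juvenile kidney. Over the 10 organ means it was the miRNA most like miR-192, with r = 0.92 for log2 levels after TMM scaling, a description over organs that share that scaling.

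miR-339a and miR-339b went together. miR-339b stood at 6766, 7090, 6020 and 12460 RPM in liver, all above the highest other library, the aged adrenal at 5312 RPM. After TMM scaling 3 of the 4 liver libraries were above all others in miR-339b. miR-339a stood at 16629, 27813, 17767 and 33057 RPM, and the aged adrenal at 18840.1 RPM lay above the juvenile and adult liver. The differences were 2.72 ± 0.40 for miR-339b (adjusted p = 2.16e-06, limma) and 2.07 ± 0.40 for miR-339a (adjusted p = 9.7e-05, limma). miR-339b was called higher than 8 organs, all but adrenal, and miR-339a than 4.

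**Figure D3:**
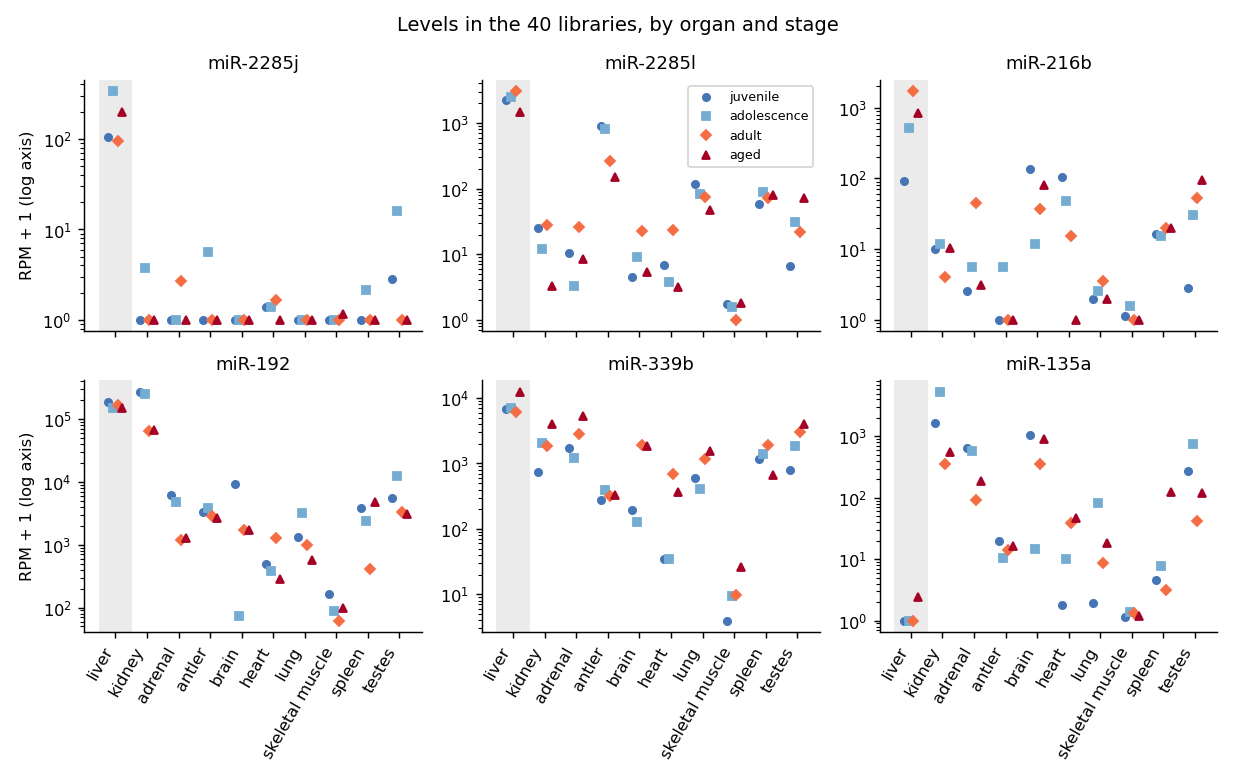
RPM + 1 on log axes for 6 miRNAs in all 40 libraries, grouped by organ, with 1 symbol for each stage and liver shaded. miR-2285j, miR-2285l and miR-339b are highest in the 4 liver libraries, miR-192 is high in liver and kidney, the juvenile liver has 91.3 RPM of miR-216b, and miR-135a has 1 liver read.

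The remaining called rises were smaller. miR-423-3p was at 346 to 751 RPM in liver and at most 305 RPM elsewhere, whereas after TMM scaling 1 of the 4 liver libraries was above all others. Its difference was 2.03 ± 0.60 (adjusted p = 0.00831, limma), a call lost in 13 of the 25 alternatives. miR-193b (1.92), miR-677 (1.81) and miR-7859 (1.65) were each within the range of the other organs in at least 1 liver library. After TMM scaling 0 liver libraries were above all others for miR-193b and miR-7859, and 2 for miR-677. miR-677 was above the highest kidney library, 294 RPM, at the juvenile and adolescence stages alone. miR-490 (1.68) was called but was higher at 3 of the 4 stages, so it fell outside the rule by which names were chosen. Taken singly, it was called higher than 4 organs and lower than 2.

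At the lower end, miR-135a was all but missing from liver. It had 1 read over the 4 liver libraries, in the aged one, while all 36 other libraries held it, at a median of 39.4 RPM and up to 5326 RPM in the adolescence kidney. On the TMM scale all 4 liver libraries were below the other 36, the single such miRNA (0.806%), whereas in RPM skeletal muscle (0.129 to 0.367 RPM) was below the aged liver at 1.43 RPM. The fitted difference of -5.13 ± 0.87 (adjusted p = 1.96e-05, limma) depends on the value added before the log. The same holds for miR-424-5p (2 liver reads), miR-452 (3), miR-196a (5) and miR-95 (7), with fitted differences of -2.81, -1.79, -2.82 and -2.83. No liver library had 10 reads of any of these names or of miR-135a. They met the minimum through other organs alone, which favoured a lower call. Taken singly, miR-135a and miR-95 were called lower than 5 organs, and miR-424-5p and miR-452 than 4.

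miR-196a and miR-196b lie in the HOX gene clusters, whose activity marks posterior parts of the body. miR-196a had 0, 6.06, 0 and 4.29 RPM in liver and up to 1575 RPM in the juvenile kidney. miR-196b had 2.28, 12.1, 15.4 and 5.72 RPM in liver and up to 5272 RPM in the aged kidney. Both were called lower (-2.82 ± 0.55 and -1.96 ± 0.59, adjusted p = 9.7e-05 and 0.00942, limma), although edgeR called miR-196a alone. No liver library had 10 reads of either, so both met the minimum through other organs, which favoured a lower call. Taken singly, miR-196a was called lower than 3 organs and miR-196b than 2. Of the 4 HOX miRNAs listed the other 2, miR-10a and miR-10b, had 0 liver reads and averaged 0.20 and 2.98 RPM in the other 9 organs.

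Lower levels in liver also came from miRNAs concentrated in 1 or a few other organs. miR-1, the main miRNA of heart and skeletal muscle, held 2408, 10797, 4372 and 2794 RPM in liver, which lies within the 825 to 928505 RPM of the other 36. Its difference was -2.80 ± 0.60 (adjusted p = 0.000385, limma). miR-133c, of the other muscle family, was lower by 1.76 ± 0.48. Taken singly, miR-1 and miR-133c were each called lower than 2 organs. Of the 5 muscle miRNAs tested, these 2 were called lower by limma, beside 11.3% of all 124, and miR-133a, miR-133b and miR-208b had values of -1.25, -1.57 and -1.24 without a call. edgeR called miR-1 alone of the 5, and DESeq2 called 4, beside 26 of all 124 called lower by DESeq2.

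miR-7, high in adrenal and brain, held 2846, 1967, 3693 and 1384 RPM in liver, and its median in the other 36 was 7281 RPM. It was lower by 2.67 ± 0.54 (adjusted p = 0.00019, limma). miR-409a, from the imprinted DLK1-DIO3 region, held 482, 149, 138 and 192 RPM in liver and was lower by 2.24 ± 0.37 (adjusted p = 1.77e-05, limma). Taken singly, miR-7 and miR-409a were each called lower than 5 organs. Of 31 miRNAs of the DLK1-DIO3 region with a value, 10 were read in liver, beside 186 of all 305 known names, and 9 were tested. The other 21 had 0 liver reads and averaged at most 1.61 RPM in the other 9 organs. As 1 liver read is worth 1.43 to 3.03 RPM, depth limits what these zeros show. limma and edgeR called miR-409a alone of the 9, beside 11.3% of all 124 called lower by limma. DESeq2 called 5 of them, miR-409a, miR-409b, miR-431, miR-493 and miR-3957, beside 26 of all 124 called lower by DESeq2. Of the 9, 8 were under an unadjusted p of 0.05 in limma, beside 63 of all 124. Among these 8, miR-134, miR-412, miR-493 and miR-541 had 10 reads in no liver library. They met the minimum through other organs alone, which favoured lower values in liver. The median of the 9 was -1.40, the value of miR-412 with 1 liver read, so it carries the same limit. miR-409b, with 1564 RPM in liver, differed by -1.27 ± 0.51 (adjusted p = 0.0414, limma).

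Of the 4 miR-378 names tested, 3 were called lower by limma, edgeR and DESeq2, beside 11.3% of all 124 in limma. miR-378 is encoded within PPARGC1B, a regulator of mitochondrial metabolism, and is known in oxidative tissues. It stood at 19131, 15001, 10676 and 7456 RPM in liver, against a median of 20962 RPM and a highest value of 203254 RPM in the aged heart. The differences were -1.68 ± 0.29 for miR-378, -1.63 ± 0.30 for miR-378c and -2.08 ± 0.44 for miR-378d. Taken singly, each of these was called lower than 4 organs, and miR-378 and miR-378c were called higher than 1. The fourth, miR-378b, was not called, at -0.81 ± 0.49 (adjusted p = 0.187, limma). These names are close in sequence, and how reads that fit several of them were shared out was not given in the sources used here. miR-1468 was lower by 1.96 ± 0.55, with 2 or 3 reads in each liver library, so it met the minimum through other organs alone. It was called lower than 3 single organs.

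Markers of the other cells that a piece of liver can hold gave the following values. Of the 3 blood and immune miRNAs tested, 0 were called by limma, edgeR or DESeq2, with 0 under an unadjusted p of 0.05 in limma. Over all 124 tested, 63 were under that unadjusted p and 26 (21.0%) were called by limma. edgeR called 13 of the 124 higher and 10 lower, and DESeq2 14 higher and 26 lower. In lists this small, 0 calls is thus little different from the share over all names. miR-486, a red cell miRNA, had 10033 ± 4050 RPM in liver and differed by 0.46 ± 0.34, while miR-451, another red cell miRNA, had 1 liver read. Summed over the list, liver held 4351 to 13823 RPM and the other libraries 633 to 40693 RPM. Of the 6 stromal and vascular miRNAs tested, 0 were called by limma, edgeR or DESeq2, and 1 was under that unadjusted p, miR-214 (1.15 ± 0.48, adjusted p = 0.0494, limma). Their sum was 114687 to 160896 RPM in liver and 2436 to 503366 RPM elsewhere. The epithelial duct list was at 2.28 to 20.5 RPM in sum and none of its members met the minimum of reads. The neuronal list summed to at most 11.4 RPM in liver, with miR-124a at 11 reads. How far these cells contribute to the liver values was not tested.

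miRNAs known for roles in liver lipid metabolism were mostly rare here. Of 13 listed, 11 had a value, 8 were read in liver, beside 186 of all 305 known names, and 4 were tested. These 4 had 0 calls by limma, edgeR or DESeq2 and 1 unadjusted p under 0.05, beside 63 of all 124 in limma. miR-22-3p, at 17651 RPM, carried nearly all of the list's reads and differed by 1.01 ± 0.41 (adjusted p = 0.0414, limma). miR-33a, which lies in a gene of cholesterol synthesis control, had 2 liver reads, miR-148a 14, miR-101 11 and miR-21-5p 2. Of the 7 let-7 names tested, 0 were called by limma, edgeR or DESeq2. Of these 7, 0 were under an unadjusted p of 0.05, with a median difference of 0.06. The 7 include let-7b and its second name miR-3596, which hold the same reads, and 0.06 is the value of both. Of the 4 miR-30 names 0 were called by limma and 1 by edgeR and DESeq2, miR-30f (1.44 ± 0.44, adjusted p = 0.011, limma). Beside these 3 lists, limma called 26 of all 124 (21.0%). edgeR called 13 of the 124 higher and 10 lower, and DESeq2 14 higher and 26 lower.

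Taken 1 organ at a time, with p-values adjusted over 9 organs and 124 miRNAs together, liver differed least from lung (8 higher, 7 lower), spleen (7 and 8) and kidney (7 and 10) in the number of calls. The numbers were largest for brain (20 and 20) and skeletal muscle (13 and 25). The mean correlation across miRNAs ran from 0.73 for brain and skeletal muscle to 0.89 for lung and 0.90 for spleen, as a description over 124 miRNAs that are not independent. Liver had the highest organ mean in RPM for 24 of the 124. Among names with at least 10 liver reads, 12 reached 2 times the next organ or more in mean RPM, from miR-2285j at 43.9 times and miR-216b at 11.9 times to names such as miR-505 with 11 reads in all. That minimum was set on liver reads alone, which favours names high in liver. The 12 are thus a description, without a share over all names.

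Kidney, the other organ very high in miR-192, was compared with liver directly. miR-192 stood at 270874, 248624, 63924 and 67465 RPM in kidney from juvenile to aged, above the liver library at the first 2 stages and below it at the later 2. The fitted difference was 0.29 ± 0.79 and was not called (adjusted p = 0.875, limma). Of 124 miRNAs, 16 were called (12.9%), 7 higher and 9 lower in liver, with 41 at an unadjusted p below 0.05.

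The calls fell to 8 without the juvenile stage, 7 without the adult stage, 10 without the juvenile liver library and 9 without the adolescence liver library. Higher in liver were miR-2285l (7.27 ± 0.75), miR-2285j (5.96 ± 0.50) and miR-216b (5.70 ± 1.18), then miR-2478, miR-574, miR-339b and miR-486 by up to 2.93. miR-574 was at 7745, 4722, 4244 and 3065 RPM in liver and 516, 346, 1296 and 1143 RPM in kidney, without overlap. miR-486 was at 4248 to 13677 RPM in liver and 1542 to 2932 RPM in kidney.

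Lower in liver than in kidney were miR-135a, miR-196b, miR-196a and miR-135b, with fitted differences between -6.19 and -8.87 that rest on 1 to 15 liver reads. miR-196b held 3378, 2694, 2298 and 5272 RPM in kidney against the 2.28 to 15.4 RPM in liver. miR-424-5p, miR-452 and miR-106a were also lower. Among the lower names with more liver reads, miR-30b-5p (-3.03 ± 0.84) was at 36.5, 45.5, 51.3 and 100 RPM in liver and 155 to 1490 RPM in kidney, and miR-409a differed by -2.45 ± 0.50.

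**Figure D4:**
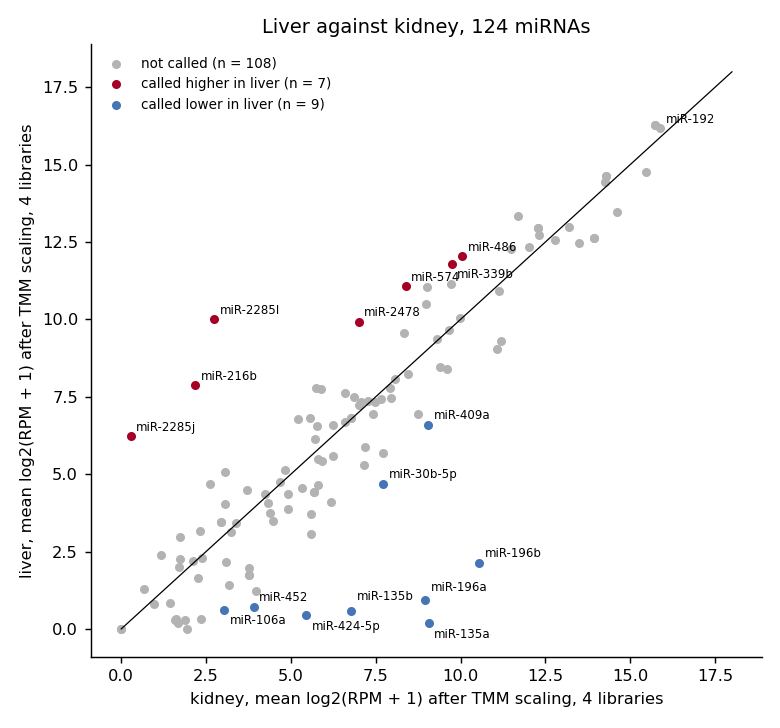
Mean log2(RPM + 1) after TMM scaling of 124 miRNAs in 4 kidney libraries (horizontal) and 4 liver libraries (vertical), with the line of equal levels and called miRNAs coloured. The 7 called higher lie above the line, with miR-2285j and miR-2285l farthest, miR-192 lies near it at the upper end, and the HOX miRNAs miR-196a and miR-196b lie far below it.

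The last comparison was over the 4 stages, where liver changed little in its order of miRNAs. Across the 74 miRNAs with at least 10 reads in each liver library, second names left out, Spearman's rho between stages was 0.92 (juvenile and aged) to 0.96. The ratio of the highest to the lowest stage was 2 or more for 42 of the 74 (56.8%), with a median ratio of 2.24. The same share was 65.1% in skeletal muscle and up to 97.0% in heart, so liver had the smallest share of the 10 organs in RPM, while skeletal muscle had a median ratio of 2.23. After TMM scaling the share was 70.3% in liver and 70.5% in antler, and with at least 50 reads in each library it was 69.8% in liver and 58.8% in antler, so liver was then not the lowest. These are descriptions, since each organ has 1 library a stage and its own depth. Without the aged library the share in liver was 31.1%. For a given name a ratio over fewer libraries cannot exceed that over all 4, and the share fell whichever stage was left out. Juvenile and aged differed most, with 10 names at least 2-fold higher in the aged library and 18 at least 2-fold lower.

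No linear change over stages passed the test. With limma and a slope for each organ, 0 of 124 were called (0%), and 1 was under an unadjusted p of 0.05. edgeR on the recovered reads also called 0, with 1 under that p. The median size of the liver slope was 0.21 log2 units a stage and the median half-width of its 95% interval 0.91. For a typical miRNA a steady change of 1 log2 unit at every stage was thus only just larger than this half-width, before adjustment for many tests. A smaller steady change, or a change of that size at a single stage, was less detectable. The 1 miRNA was miR-378, with a slope of -0.59 (95% interval -1.11 to -0.06, adjusted p = 1, limma). Its level dropped at each step in RPM, and at 2 of the 3 steps after TMM scaling.

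The slope of liver also did not differ from the mean slope of the other organs for any miRNA past the threshold, 0 of 124 (0%), with 2 under an unadjusted p of 0.05 in limma and 2 in edgeR. These were miR-30f (-0.80 a stage, 95% interval -1.51 to -0.08) and miR-216b (1.26, 0.05 to 2.46), both with an adjusted p of 0.973 in limma. miR-30f stood at 32940, 35203, 22082 and 14113 RPM in liver. miR-216b had the widest range of the 74, 18.7-fold from the juvenile to the adult library, with 40 reads at the lower end (95% exact Poisson interval 65.2 to 124 RPM) and 667 at the upper (1582 to 1844 RPM).

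In RPM, 8 of the 74 rose and 5 fell at every step. The 5 were miR-378, miR-574 (7745 to 3065 RPM), miR-197 (5218, 3422, 2952 and 1876 RPM), miR-2887 (390, 264, 246 and 126 RPM) and let-7i. The highest of the 8 were miR-199a-3p (50165 to 66340 RPM) and miR-186 (9322, 12400, 14796 and 17040 RPM), and miR-17-5p rose from 450 to 1019 RPM. After TMM scaling 0 of the 74 rose and 9 fell at every step, and of the 5 names above only miR-197 and miR-2887 were among the 9. With at least 50 reads in each library, the largest ratios were those of miR-490 (6.39, with 999 RPM in the aged library and 156 to 321 RPM before), miR-1 (4.48, highest in adolescence at 10797 RPM), miR-677 (3.62), miR-1306 (3.53), miR-2904 (3.49) and miR-423-5p (3.26). miR-1306, miR-2904 and miR-423-5p were highest in the juvenile and lowest in the aged library.

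**Figure D5:**
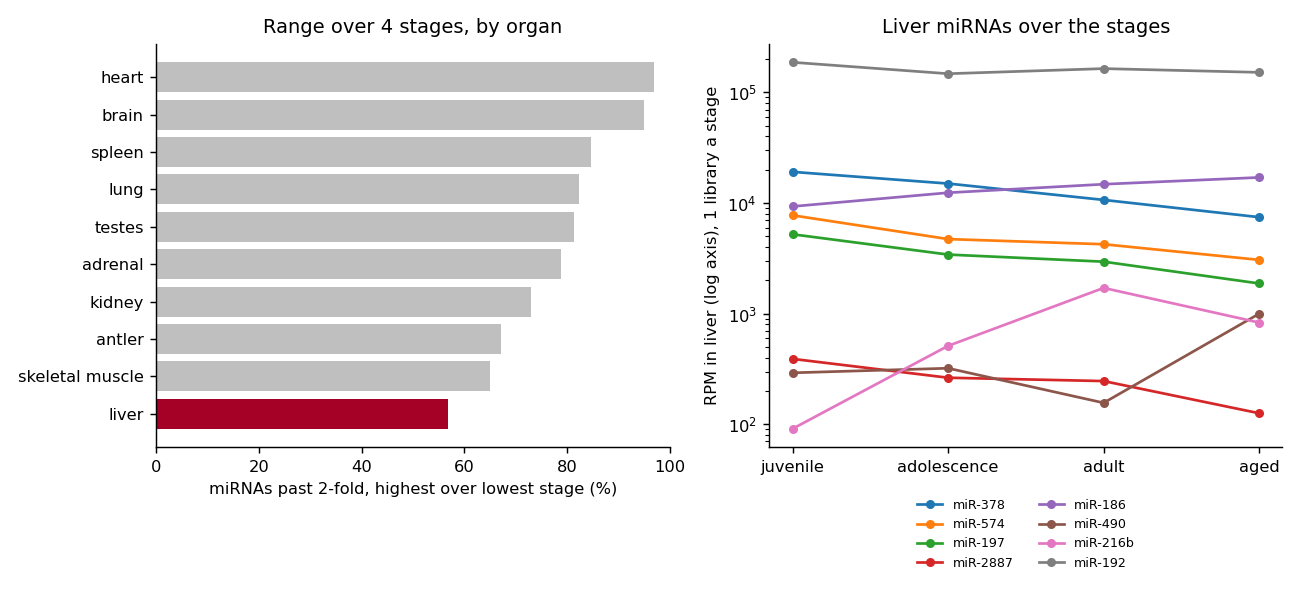
Left, the percent of miRNAs with a highest stage at least 2 times the lowest in RPM, by organ, from 56.8% in liver to 97.0% in heart. Right, RPM on a log axis of 8 liver miRNAs at the 4 stages, 1 library each, where miR-192 is nearly level, miR-378, miR-574, miR-197 and miR-2887 drop at each step, miR-186 rises, and miR-216b is lowest in the juvenile library. After TMM scaling miR-197 and miR-2887 still dropped at each step, and miR-378, miR-574 and miR-186 no longer moved one way.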

How the data were processed

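Small RNA of 40 pooled libraries was measured. The authors trimmed the reads, set other RNA classes aside, aligned the remainder with miRBase, predicted further miRNAs with miRDeep, and deposited a level in RPM for each miRNA with a read (the header calls it tpm, yet nothing is divided by length). The submitters' processing notes name CASAVA, bcl2fastq 1.8.4 and Bowtie, and the genome build is not given in the sources used here. The labels and the methods name different library kits. Matching fixes the unit of a name, so names with shared reads repeat each other, and a share of miR-1 above 90% in skeletal muscle lowers all other RPM values there. The value of 1 read was recovered from the smallest step of each library, after which each of the 7982 values was a whole read count to within 0.01. A miRNA not listed was taken as 0 reads. Depth was 329913 to 698874 miRNA reads in liver, where 10 reads have a counting standard deviation of 0.316 of their value.

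The 31 known names listed in antler alone and the numbered names, whose numbers differ in antler, were left out. In antler the reads of miR-148c were taken as miR-2957. Of 7 pairs of names with nearly the same reads, the second was left out of ranks. Models were fitted with limma 3.58.1 (R 4.3.3), with TMM factors of edgeR 4.0.16 applied to RPM before log2(RPM + 1) was taken, over all 40 libraries with organ and stage as terms. Names needed at least 10 reads in at least 4 libraries. Alternatives were total reads, edgeR and DESeq2 1.42.0 on recovered reads, no minimum of reads, 10 in place of 1 in the log, merged names, no stage term, and leaving out each stage, organ or liver library. The code was tested on simulated counts. Descriptions used Python 3.11.15, numpy 2.4.6, pandas 2.3.3 and scipy 1.17.1.

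The stage number pairs libraries because all organs at 1 stage were taken from the same deer, so stage was a term of the model. Deviations from the organ means had a mean correlation of 0.11 between liver and the other organs at the same stage, from -0.27 to 0.62, and of -0.04 at different stages. As animals were pooled by stage, p-values measure the spread between libraries of other stages and organs.

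The text names the 2 markers given for liver, the 20 highest liver miRNAs, called miRNAs higher or lower at all 4 stages (up to 12 each way), the smallest p in the slope tests, the 6 largest stage ratios with at least 50 reads, and members of lists by family or cell type. Names outside it, such as those compared with kidney or changing at each step, were chosen after their values were seen. The members and lists were chosen with earlier results of these data known.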

Additional observations from a re-analysis of the deposited data

Results flagged for a closer look

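In 35 of the named miRNAs the 4 liver libraries were checked for 1 library far from the other 3, where the gap to the nearest value takes a larger part of the whole range than the 95% limit of Dixon. Chance alone gives this in about 1 of 20 groups, and 5 were found. miR-145 was at 86257 RPM in the adult liver library, against 38453 to 41062 RPM in the others. The aged liver library held 12460 RPM of miR-339b (6020 to 7090 RPM in the others) and 155 RPM of miR-193b (51.5 to 61.6 RPM). The juvenile liver library held 38.8 RPM of miR-7859 (124 to 140 RPM in the others) and 482 RPM of miR-409a (138 to 192 RPM). No slope of liver was called as differing from the mean slope of the other organs.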

How the results depend on the processing

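None of the 35 differences from the mean of the other organs that were followed through the alternatives changed direction. miR-2284x, near 0 and not among them, went from 0.04 to -0.07 with DESeq2, and single differences from kidney were not followed. Scaling to total miRNA reads gave 49 calls against the mean of the other organs (44 higher, 5 lower), 268 calls higher over the 9 single organs and 2 miRNAs higher than each organ, where the main values were 26, 106 and 1. Leaving miR-1 out of the total gave 29 higher and 8 lower. DESeq2 gave 40 calls (26 lower), and 28 against kidney (20 lower). With no replicate block, that is without the stage term that pairs libraries of the same deer, 18 were called, 7 higher and 11 lower, and all 18 were among the 26. Without skeletal muscle there were 16 calls (6 lower). Merging names moved the share of the 10 highest from 80.0% to 81.8%. With no minimum of reads 7 slopes and 7 slope differences were called, of names with 1 to 5 liver reads.

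Leaving out 1 stage or liver library gave 14 to 23 calls against the mean of the other organs (5 to 12 higher, 8 to 12 lower), 7 to 15 against kidney (2 to 7 higher, 5 to 9 lower), 67 to 89 calls higher and 82 to 106 lower over the single organs, 0 miRNAs higher than each organ, 0 slopes and 0 slope differences, and 31.1% to 48.7% of names past 2-fold. With a stage left out, the ratio of highest to lowest can only stay or fall for a given name. Kidney without a liver library, the stage range without a stage, slopes without skeletal muscle and the fits with the 124 names kept were added after seeing the data. Depth limits statements on names below 10 liver reads, and the causes of these shifts were not tested.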

Other observations

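Besides the known miRNAs, 96 predicted miRNAs, which have numbers in place of names, had a read in liver. They held 0.174% to 0.317% of the liver reads, and 24 of them had 10 or more reads over the 4 libraries. The highest was novel_16, at 1486, 1012, 1271 and 783 RPM from juvenile to aged. In 3 of the 4 liver libraries it was above the highest of the 32 libraries of the 8 other organs outside antler, 812 RPM in the aged testes. The next was novel_23, at 1071, 588, 520 and 343 RPM, with 585 RPM in the juvenile spleen as the highest other value. Their numbers do not refer to the same miRNAs in antler, which was therefore left out.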
